A study of Mus musculus with 18 samples.

Results

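Potassium channel subunit genes were followed in dorsal root ganglia (DRG), the clusters of sensory neuron cell bodies beside the spinal cord, of mice lacking 1 of 3 sodium channels. The members were the genes whose symbol in the array annotation begins with Kcn. Left out were antisense transcripts, the Kcnrg genes and the Kcnip genes, which are counted below among channel partners. This gave 77 of the 18193 genes measured, each read from the brightest of the probe sets named for it alone. A further 12 mouse genes that fit the rule are not analysed here.

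RNA from whole DRG of all spinal levels was hybridised to 18 Affymetrix mouse whole-genome expression arrays. Knockout (KO) DRG gave 3 arrays in each of 3 lines, and littermate DRG of the same line, labelled wild type, gave another 3. In Nav1.7 KO mice *Scn9a* was deleted with Cre recombinase carried under the Advillin gene *Avil*, which restricts the deletion to sensory neurons. *Scn10a* is missing throughout the body in Nav1.8 KO mice, and *Scn11a* in Nav1.9 KO mice. The labels state no strain, age or sex. Whether 1 array held RNA of 1 animal is not stated either, so the p-values measure only the spread between these samples. Values are log2 signal, and a difference of 1 is a doubling. A gene was said to rise or fall when its adjusted p from limma, a linear model fitted to all genes, was under 0.05.

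Potassium channels let potassium leave the cell, which brings the membrane back to rest after an action potential and sets how readily the next one starts. Voltage-gated (Kv) channels are built of 4 alpha subunits around 1 pore, and auxiliary beta subunits change their gating or their number at the membrane. Calcium- and sodium-activated channels shape the afterpotentials that follow a spike. Inward rectifiers and 2-pore-domain channels carry the resting current. In sensory neurons, Kv1, Kv4 and Kv7 channels are known brakes on firing, and several potassium channel genes are known to fall in DRG after nerve injury.

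The targeted gene was lower in the KO arrays of 2 lines. *Scn10a* differed by -1.58 in Nav1.8 KO DRG (adjusted p = 5.40e-05) and *Scn11a* by -1.85 in Nav1.9 KO DRG (adjusted p = 7.13e-07, both from limma on the log2 scale). *Scn9a* had a mean of 12.25 over the Nav1.7 KO arrays, against 12.31 over their littermates (adjusted p = 0.642), so its probe set, whose place relative to the deleted exons is not known here, does not check that label. *Avil* itself differed by -0.64 in the Nav1.7 line (adjusted p = 8.03e-08). The loss of *Scn9a* and the presence of the Cre allele cannot be told apart. *Xist*, transcribed from the inactive X chromosome of female cells, was high on 2 of 3 Nav1.7 KO arrays and on all 3 littermate arrays, and high on 2 of 3 Nav1.8 KO arrays and on none of the littermate arrays. It was low on all 6 arrays of the Nav1.9 line. The array medians lay between 6.33 and 6.36.

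In Nav1.7 KO DRG, 16 of the 77 potassium channel genes passed the test, which is 20.8% of them against 4.33% of all genes. The 4 that rose (5.19%, against 1.81% of all genes) were *Kcnv1*, *Kcnc4*, *Kcnk2* and *Kcnmb4*. The 12 that fell (15.6%, against 2.51%) included all 3 Kv4 genes measured and 5 of the 11 calcium- and sodium-activated channel genes. *Kcnd2*, a Kv4 gene, and *Kcnq1*, which also fell, were dim, with signal near or below the array medians. No potassium channel gene passed in Nav1.8 KO DRG, where 0.0165% of all genes did, or in Nav1.9 KO DRG, where 0.473% did. At an unadjusted p under 0.05 these counts were 25, 6 and 11 of 77 in the 3 lines, against 16.3%, 8.09% and 12.1% of all genes.

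**Figure D1:**
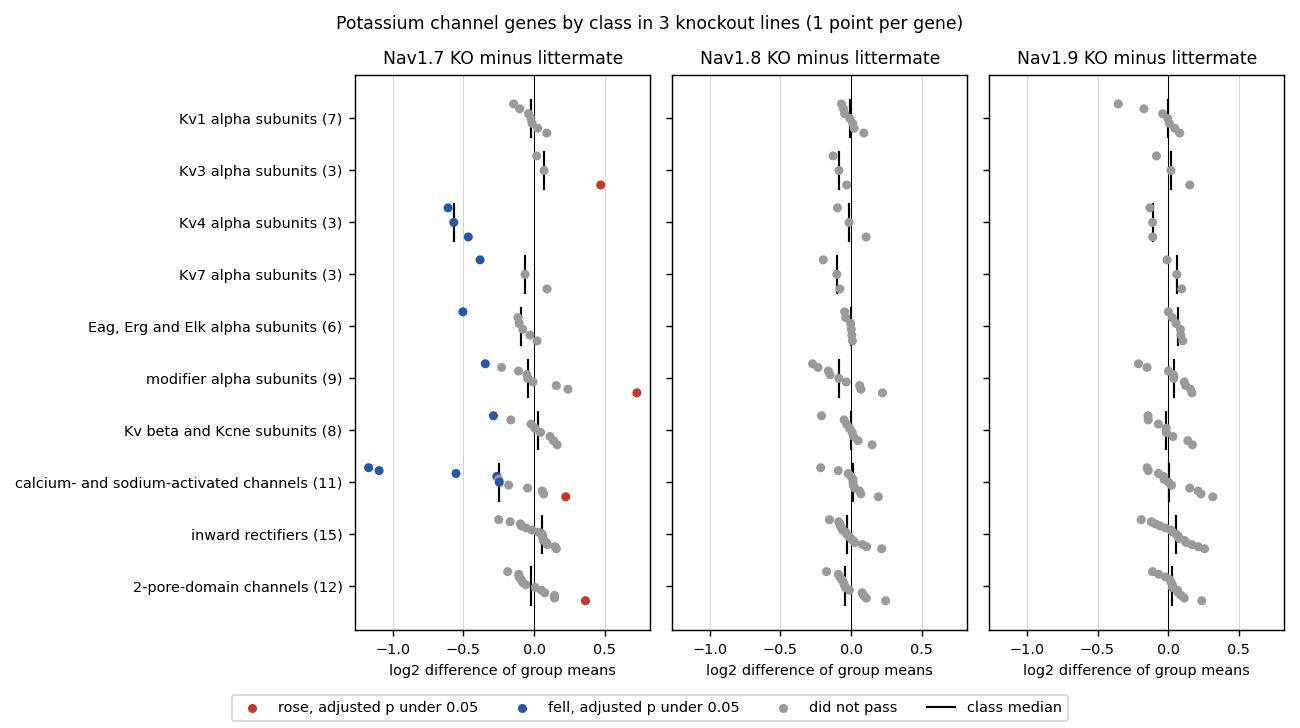
Log2 difference of the group means, KO minus littermate, for 77 potassium channel genes in 3 lines (horizontal axis), grouped by class with the number of genes in brackets (vertical axis). Each point is 1 gene, and the black bar is the class median, which is -0.57 for Kv4 alpha subunits in the Nav1.7 line and -0.02 in the Nav1.8 line. Coloured points passed the test, and all 16 lie in the Nav1.7 panel.

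The difference between Nav1.7 KO DRG and littermates had a median of -0.03 over the 77 genes and 0.01 over all genes, with an SD over genes of 0.28 and 0.16. In Nav1.8 KO DRG the median was -0.02 and the SD over the 77 genes 0.10, and in Nav1.9 KO DRG they were 0.03 and 0.12. The medians thus stayed near 0 in every line, and in Nav1.7 KO DRG the spread was wider, with genes moving in both directions. Inward rectifiers, with 15 genes, and Kv1 alpha subunits, with 7, had no gene that passed in any line.

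Promoter sequence is shown for 3 of the genes that fell furthest in Nav1.7 KO DRG, so that they can be set beside each other. The bases are the 250 upstream of an annotated start site, from RefSeq on build GRCm38.p6, written 5′ to 3′ on the strand of the gene. Capitals mark CAGCTG, an E-box that basic helix-loop-helix factors can bind.
*Kcnmb1*, chr11:33962763-33963012, plus strand: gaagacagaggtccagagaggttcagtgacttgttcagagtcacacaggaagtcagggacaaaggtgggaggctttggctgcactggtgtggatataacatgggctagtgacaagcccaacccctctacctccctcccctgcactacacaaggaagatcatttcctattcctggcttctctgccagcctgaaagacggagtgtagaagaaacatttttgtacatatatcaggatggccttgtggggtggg
*Kcnn1*, chr8:70863259-70863508, minus strand: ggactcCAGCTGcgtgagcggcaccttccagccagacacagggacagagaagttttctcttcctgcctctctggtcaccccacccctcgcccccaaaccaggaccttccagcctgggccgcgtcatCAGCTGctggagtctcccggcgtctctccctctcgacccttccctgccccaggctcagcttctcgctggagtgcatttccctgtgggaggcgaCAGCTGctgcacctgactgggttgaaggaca
*Kcnn1*, chr8:70857009-70857258, minus strand: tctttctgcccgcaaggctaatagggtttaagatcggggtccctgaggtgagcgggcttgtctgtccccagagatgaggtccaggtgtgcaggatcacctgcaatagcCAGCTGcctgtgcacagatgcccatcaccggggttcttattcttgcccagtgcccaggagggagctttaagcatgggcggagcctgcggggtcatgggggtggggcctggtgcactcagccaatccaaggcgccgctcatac
*Kcnd3*, chr3:105451640-105451889, plus strand: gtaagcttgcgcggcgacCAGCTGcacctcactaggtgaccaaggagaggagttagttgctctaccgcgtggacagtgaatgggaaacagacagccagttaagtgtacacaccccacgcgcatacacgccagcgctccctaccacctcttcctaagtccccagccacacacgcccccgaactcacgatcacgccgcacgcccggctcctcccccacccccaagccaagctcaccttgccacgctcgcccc

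The stretches differ in composition. *Kcnmb1* has 1 CG dinucleotide in its 250 bases and 50.8% G and C, while *Kcnd3* has 18 and 62.8%. The E-box, which reads the same on both strands, stands before both *Kcnn1* start sites and the *Kcnd3* start site, and not in the *Kcnmb1* stretch. Among 32851 RefSeq windows of the same length, 13.0% hold it, and among the 78 windows of the 58 potassium channel genes with a window 25.6% do. Of the 16 genes that rose or fell, 10 have a window, and 5 of their 16 windows (31.2%) hold an E-box, those of *Kcnn1*, *Kcnd3* and *Kcnk2*. Counted by gene, this is 3 of 10, against 15 of the 58 potassium channel genes and 3979 of 27025 genes with a window. TGTGGT, the core of the Runx site (ACCACA on the other strand), was found in 1 of the 16 windows of these 10 genes, that of *Kcnc4*, against 14% of all windows. TGACG, the core of the cyclic AMP response element (CGTCA on the other strand), was found in 2, of *Kcnc4* and *Kcnn1*, against 17.8%. A match is a description, not a site or a cause. The median number of CG dinucleotides was 11 in the windows of the 10 genes, 8 in those of all 58 and 6 in all windows.

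Kv4 alpha subunits form the fast A-type current that delays the first spike. All 3 were lower in Nav1.7 KO DRG. *Kcnd3* (Kv4.3, on chromosome 3) read 11.20, 11.07 and 11.03 on the Nav1.7 KO arrays, against 11.74, 11.76 and 11.63 on the littermate arrays. The KO level was 65.6% of the littermate level (log2 difference -0.61 ± 0.064 (SE), n = 3 arrays each, adjusted p = 2.50e-05 from limma). No KO array came near a littermate array, and the 12 arrays of the other lines, between 11.53 and 11.78, covered the littermates and none of the KO arrays.

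*Kcnd1* (Kv4.1, on the X chromosome) read 10.36, 10.26 and 10.41 on the Nav1.7 KO arrays, against 10.75, 10.81 and 10.87 on the littermate arrays, a difference of -0.47 ± 0.084 (SE, adjusted p = 0.00371 from limma). The groups did not overlap, and all 3 KO arrays lay under the 12 arrays of the other lines. The KO array with low *Xist* was the lowest of the 3. *Kcnd2* (Kv4.2, on chromosome 6) read 6.13, 5.58 and 5.86 in Nav1.7 KO DRG, against 6.40, 6.44 and 6.44 in littermates (-0.57 ± 0.11 (SE), adjusted p = 0.00536 from limma). Here the KO arrays scattered and the littermates did not, and it was the littermates that stood above all 12 arrays of the other lines, which reached 6.36.

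The same 3 genes were near their littermates in the other lines. *Kcnd3* differed by -0.02 in Nav1.8 KO DRG and -0.11 in Nav1.9 KO DRG, *Kcnd1* by -0.10 and -0.11, and *Kcnd2* by 0.11 and -0.13, with adjusted p of at least 0.527. In the Nav1.8 line 1 of the 3 *Kcnd1* probe sets lay on the other side of 0, at 0.37. The *Kcnd3* difference was itself tested between lines, and the Nav1.7 effect minus the Nav1.8 effect was -0.59 (adjusted p = 0.00188), while the Nav1.7 effect minus the Nav1.9 effect was -0.50 (adjusted p = 0.00556). For *Kcnd2* the difference passed against Nav1.8 KO DRG (adjusted p = 0.0300) and not against Nav1.9 KO DRG (adjusted p = 0.153). For *Kcnd1* neither passed (adjusted p = 0.139 and 0.135). These calls moved with the processing. With the mean of all probe sets, *Kcnd1* passed against both lines (-0.56, adjusted p = 0.000136, and -0.37, adjusted p = 0.00348) and *Kcnd2* against Nav1.9 (adjusted p = 0.0192). With an *Xist* term, neither *Kcnd2* (adjusted p = 0.303) nor *Kcnd3* (adjusted p = 0.0579) passed against Nav1.8, and *Kcnd2* was also lost with the arrays of those 2 lines alone (adjusted p = 0.0573), with a replicate block (adjusted p = 0.0910) and in 7 of the 12 fits without 1 array.

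Proteins that assemble with Kv4 channels lie outside the Kcn rule used here and were counted from a list of 27 potassium channel partners, 24 of them measured. In Nav1.7 KO DRG 0 rose, 5 fell and 19 did not pass, with a median of -0.05. Of all genes, 1.81% rose and 2.51% fell there. *Dpp10*, a membrane protein that speeds Kv4 gating, fell by 0.61 (adjusted p = 0.00119), *Kcnip2*, a calcium-binding Kv4 subunit, fell by 0.30 (adjusted p = 0.00138) and *Dpp6*, a relative of *Dpp10*, fell by 0.20 (adjusted p = 0.0114, all from limma). The other Kcnip genes did not pass, with *Kcnip1* at -0.07 (adjusted p = 0.676), *Kcnip3* at -0.20 (adjusted p = 0.259) and *Kcnip4* at -0.17 (adjusted p = 0.153). The other partners that fell were *Abcc8*, the sulphonylurea receptor of ATP-sensitive potassium channels, by 1.01 (adjusted p = 2.52e-05), and *Lgi1*, a secreted protein linked to Kv1 channels, by 0.24 (adjusted p = 0.0380). *Kcnj11*, the pore subunit that pairs with *Abcc8*, did not pass (0.06, adjusted p = 0.680). None of the 24 passed in Nav1.8 KO or Nav1.9 KO DRG.

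The 2 greatest decreases of the 77 genes in Nav1.7 KO DRG were in the class of calcium- and sodium-activated channels. *Kcnmb1* encodes the beta1 subunit that raises the calcium sensitivity of the large-conductance BK channel, best known from smooth muscle. On chromosome 11, it read 8.14, 8.28 and 8.22 in Nav1.7 KO DRG, against 9.64, 9.20 and 9.31 in littermates. The KO level was 44.4% of the littermate level (-1.17 ± 0.11 (SE), n = 3 arrays each, adjusted p = 5.25e-06 from limma). The KO arrays lay under all 12 arrays of the other lines and the littermates above all of them, since those ran between 8.51 and 9.09.

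*Kcnn1* (SK1, on chromosome 8), a small-conductance channel opened by calcium after a spike, read 7.36, 7.40 and 7.39 in Nav1.7 KO DRG, against 8.54, 8.64 and 8.25 in littermates. This was 46.8% of the littermate level (-1.10 ± 0.098 (SE), adjusted p = 4.39e-06 from limma). The 3 KO arrays were nearly equal and stood apart from the other 15, of which the lowest read 8.10. *Kcnn2* (SK2, on chromosome 18) read 7.79, 7.62 and 7.78 in Nav1.7 KO DRG and 7.95, 8.004 and 8.02 in littermates, a difference of -0.26 ± 0.051 (SE, adjusted p = 0.00619). For *Kcnn2* the littermates were the group above all arrays of the other lines, and 2 of 3 KO arrays lay among those arrays. *Kcnn3* and *Kcnn4*, the other SK-type genes, did not pass (-0.05 and 0.06, adjusted p of at least 0.758).

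*Kcnma1*, the pore subunit of the BK channel, read 8.32, 8.05 and 8.44 in Nav1.7 KO DRG, against 8.75, 8.88 and 8.83 in littermates (-0.55 ± 0.13 (SE), adjusted p = 0.0235 from limma). All 3 KO arrays lay within the range of the other lines, 7.95 to 8.52, and all 3 littermates above it. The call was lost when KO replicate 1 or 2 or littermate replicate 2 or 3 was left out, with an adjusted p of up to 0.110, and also with *Xist* class in the model (adjusted p = 0.0556). *Kcnmb4*, the neuronal beta4 subunit of the same channel, went the other way. It read 9.42, 9.46 and 9.49 in Nav1.7 KO DRG, against 9.28, 9.25 and 9.16 in littermates (0.22 ± 0.041 (SE), adjusted p = 0.00385), and its KO arrays were above all 12 arrays of the other lines. *Kcnmb2*, a beta subunit that inactivates the channel, did not pass (0.07, adjusted p = 0.782). Of the 4 BK subunit genes measured, 2 thus fell, 1 rose and 1 did not pass.

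Sodium-activated channels open when sodium enters during firing. *Kcnt1* (Slack, on chromosome 2) read 9.28, 9.26 and 9.18 in Nav1.7 KO DRG, against 9.50, 9.53 and 9.43 in littermates (-0.25 ± 0.056 (SE), adjusted p = 0.0181 from limma). *Kcnt2* (Slick, on chromosome 1) read 7.91, 7.73 and 7.80, against 8.06, 8.02 and 8.11 in littermates. Its difference was the same size but less precisely measured (-0.25 ± 0.077 (SE), adjusted p = 0.0890), and it was the gene nearest to the threshold among those that did not pass. Neither gene's groups overlapped. The *Kcnt1* call was lost without KO replicate 3 or without littermate replicate 1 or 2, with an adjusted p of up to 0.0771.

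**Figure D2:**
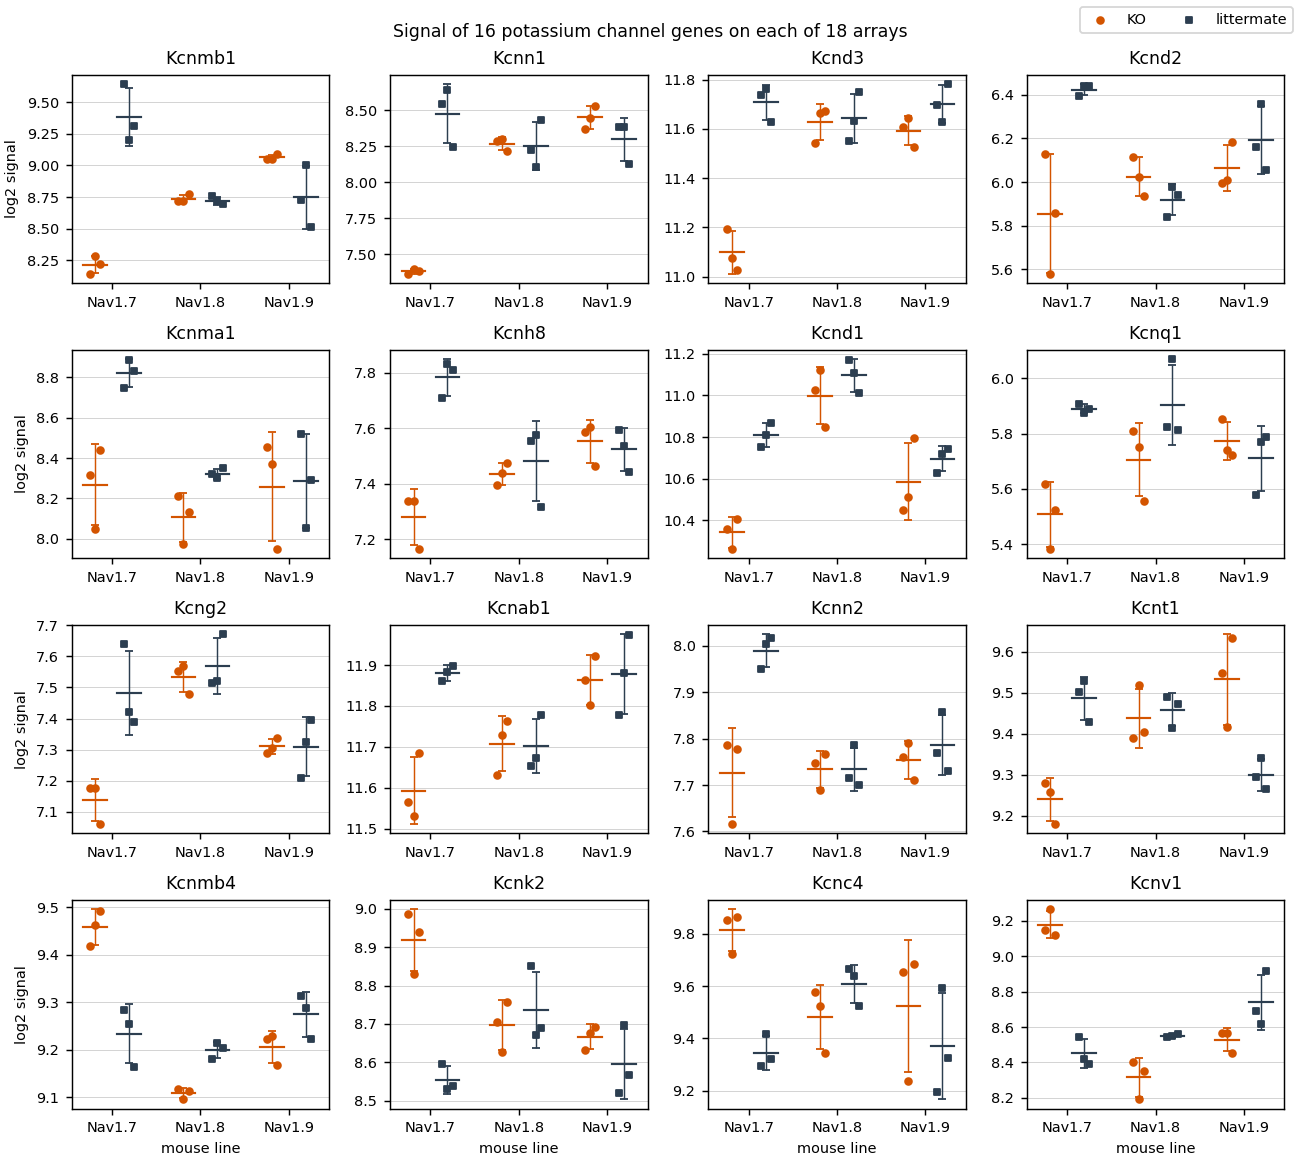
Log2 signal on each of 18 arrays (vertical axis) for the 16 potassium channel genes that passed in the Nav1.7 line, by mouse line (horizontal axis). Orange circles are KO arrays and dark squares littermate arrays, with the mean and SD of 3 arrays. In *Kcnn1*, *Kcnd3* and *Kcnv1* the Nav1.7 KO arrays stand apart from the other 15, and in *Kcnma1* the Nav1.7 littermates do.

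Modifier subunits form no channel alone and change the voltage-gated channels they join. *Kcnv1* (Kv8.1, on chromosome 15) had the greatest increase of the 77 genes in Nav1.7 KO DRG, where it read 9.15, 9.27 and 9.12, against 8.55, 8.42 and 8.39 in littermates. The KO level was 166% of the littermate level (0.73 ± 0.074 (SE), n = 3 arrays each, adjusted p = 1.75e-05 from limma). All 3 KO arrays were above the 12 arrays of the other lines, which reached 8.92. In the other lines the KO arrays were the lower group, by 0.23 in Nav1.8 (adjusted p = 0.495) and 0.21 in Nav1.9 (adjusted p = 0.264), without overlap and without passing. *Kcng2* (on chromosome 18) read 7.18, 7.18 and 7.06 in Nav1.7 KO DRG, against 7.64, 7.42 and 7.39 in littermates, and fell by 0.35 (adjusted p = 0.00667). The 7 other modifier genes did not pass, among them *Kcns1*, a gene linked to pain in people (-0.23, adjusted p = 0.420), and *Kcns3* (-0.11, adjusted p = 0.430).

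Kv3 channels repolarise fast-spiking neurons. *Kcnc4* (Kv3.4, on chromosome 3), a Kv3 subunit of nociceptors, read 9.85, 9.72 and 9.87 in Nav1.7 KO DRG, against 9.29, 9.42 and 9.32 in littermates (0.47 ± 0.11 (SE), adjusted p = 0.0240 from limma). The groups were separate, and of the 16 calls it was the closest to the threshold. Its brightest probe set is of the _s_at kind, which can match several transcripts, and the gene's other probe set differed by 0.20 and did not pass (adjusted p = 0.195 when it stood for the gene). In the Nav1.9 line the same probe set scattered, with KO arrays between 9.24 and 9.69 and littermates between 9.20 and 9.59. The *Kcnc4* call was lost without KO replicate 1 or 3 and without littermate replicate 1 or 3, with an adjusted p of up to 0.0828. *Kcnc1* and *Kcnc2* did not pass (0.07 and 0.02, adjusted p of at least 0.632).

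*Kcnk2* (TREK-1, on chromosome 1), a 2-pore-domain channel that responds to stretch, heat and fatty acids, read 8.99, 8.83 and 8.94 in Nav1.7 KO DRG, against 8.60, 8.53 and 8.54 in littermates (0.36 ± 0.060 (SE), adjusted p = 0.00188 from limma). It was the 1 gene of 12 in its class that passed, and it rose. The KO arrays did not overlap the littermates, and 2 of the 3 were above all arrays of the other lines. Its relatives *Kcnk4* (TRAAK) and *Kcnk10* (TREK-2) did not pass (0.05 and 0.08, adjusted p = 0.760 and 0.640), nor did *Kcnk1* (-0.11, adjusted p = 0.366) or *Kcnk3* (0.14, adjusted p = 0.233).

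The remaining genes that fell were *Kcnh8*, *Kcnq1* and *Kcnab1*. *Kcnh8* (Kv12.1 or Elk1, on chromosome 17) encodes a channel of the ether-a-go-go superfamily and read 7.34, 7.34 and 7.17 in Nav1.7 KO DRG, against 7.71, 7.83 and 7.81 in littermates (-0.50 ± 0.071 (SE), adjusted p = 0.000481 from limma). The littermates lay above all arrays of the other lines, and 1 of 3 KO arrays below them. The other 5 genes of its class did not pass, *Kcnh2* (Erg1) with the smallest p (-0.11, adjusted p = 0.279). *Kcnq1* (Kv7.1, on chromosome 7), better known from the heart, read 5.62, 5.38 and 5.52, against 5.91, 5.87 and 5.89 in littermates (-0.38 ± 0.084 (SE), adjusted p = 0.0149), a call lost without KO replicate 2 or littermate replicate 1 (adjusted p of up to 0.0754). *Kcnq3* and *Kcnq5*, which carry the neuronal M-current, did not pass (-0.06 and 0.09, adjusted p of at least 0.609).

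*Kcnab1* (Kvbeta1, on chromosome 3), a beta subunit that gives Kv1 channels fast inactivation, read 11.56, 11.53 and 11.69 in Nav1.7 KO DRG, against 11.86, 11.88 and 11.90 in littermates (-0.29 ± 0.058 (SE), adjusted p = 0.00868 from limma). The Kv1 alpha subunits it joins did not pass. *Kcna1* differed by -0.10, *Kcna2* by 0.03 and *Kcna4* by -0.14 (adjusted p of at least 0.317), and *Kcnab2*, the other main Kv1 partner, by 0.01 (adjusted p = 0.978). A Kv1 beta subunit thus fell without a detectable difference in the 7 Kv1 alpha subunits measured, whose differences lay between -0.14 and 0.09.

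Among the inward rectifiers *Kcnj10* (Kir4.1), the potassium channel of satellite glia, differed by 0.07 (adjusted p = 0.807), and *Kcnj3* and *Kcnj6*, which form channels opened by G proteins, by 0.09 each (adjusted p = 0.723 and 0.623). All 61 potassium channel genes that did not pass in Nav1.7 KO DRG had differences between -0.25 and 0.24, and the 95% confidence interval of each lay within a 1.5-fold change in either direction. The same held for all 77 in Nav1.8 KO DRG and for 76 of 77 in Nav1.9 KO DRG, the exception being *Kcna5* (-0.35, 95% interval -0.78 to 0.07). *Kcnh7* and *Kcnj3*, the 2 members within 20 Mb of *Scn9a*, did not pass in that line (adjusted p = 0.701 and 0.723), and no member lies as close to *Scn10a* or *Scn11a*.

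All 16 genes that passed had 3 Nav1.7 KO arrays on 1 side of 3 littermate arrays. Over the 77 genes 25 did not overlap, which is 32.5% against 20.4% of all genes, with 18 lower (23.4%, against 9.61%) and 7 higher (9.09%, against 10.8%) in KO DRG. In the Nav1.8 line 12 (15.6%, against 13.8%) and in the Nav1.9 line 11 (14.3%, against 18%) did not overlap. For a single gene, the smallest two-sided p of an exact permutation test on 6 arrays is 0.1. The calls therefore rest on spread shared over the 6 groups and, in limma, borrowed across genes. Limma fitted to the 6 arrays of the Nav1.7 line alone still borrows across genes, and there 9 of the 16 passed. *Kcnab1*, *Kcnd2*, *Kcng2*, *Kcnma1*, *Kcnmb4*, *Kcnn2* and *Kcnt1* did not (adjusted p between 0.0574 and 0.108). Analysis of variance on those 6 arrays, which does not borrow, passed 0. The share of all genes that passed was not counted in either fit.

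The 12 arrays of the other lines give a range against which to set the 2 groups of the Nav1.7 line. The 16 genes were chosen because those 2 groups differ, so 1 group outside the range is favoured. The share over all genes was not counted. All 3 Nav1.7 littermates were *Xist*-high, and of the 12 arrays only 2, both Nav1.8 KO, were. All 3 Nav1.7 KO arrays lay outside the range of those 12 arrays for 8 of the 16 genes, *Kcnmb1*, *Kcnn1*, *Kcnd3*, *Kcnd1*, *Kcng2*, *Kcnc4*, *Kcnmb4* and *Kcnv1*. All 3 Nav1.7 littermates lay outside it for 5, *Kcnmb1*, *Kcnd2*, *Kcnma1*, *Kcnh8* and *Kcnn2*. *Kcnmb1* alone was in both sets. *Kcnma1* was the 1 gene whose KO arrays all lay within the range of the other lines.

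The littermates of the 3 lines differed from each other for 21 of the 77 genes (27.3%, against 28.1% of all genes, moderated F test in limma). Of the 16 genes that passed in Nav1.7 KO DRG, 10 were among them. Both tests use the same Nav1.7 littermate arrays, which favours such an overlap, and it was not counted over all genes. *Kcnmb1* averaged 9.39, 8.72 and 8.75 in the littermates of the Nav1.7, Nav1.8 and Nav1.9 lines (adjusted p = 0.000537). *Kcna6*, a Kv1 alpha subunit, averaged 8.92, 9.26 and 9.32 (adjusted p = 0.000161), and *Kcnab2* 12.1, 11.96 and 11.72 (adjusted p = 0.000462). *Kcnk3* (TASK-1) and *Kcne4*, a subunit that inhibits Kv1 and Kv7 channels, also differed (adjusted p = 0.000651 and 0.00264). The Nav1.7 littermates were *Xist*-high and those of the other lines *Xist*-low, so *Xist* class does not separate the Nav1.8 from the Nav1.9 littermates. With *Xist* class in the model 11 of the 77 genes differed, and the share of all genes was not counted in that fit. Line and any batch cannot be told apart.

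The differences of the Nav1.7 line were set against those of the other lines in the same model. The Nav1.7 KO effect differed from the Nav1.8 KO effect for 9 of the 77 genes, against 2.15% of all genes, and from the Nav1.9 KO effect for 7, against 2.82%. *Kcnmb1*, *Kcnn1*, *Kcnd3*, *Kcnh8*, *Kcnmb4* and *Kcnv1* passed in both comparisons. *Kcnk2*, *Kcnd2* and *Kcnt2* passed against Nav1.8 alone and *Kcnt1* against Nav1.9 alone, which does not show that the 2 comparisons differ. The Nav1.8 and Nav1.9 KO effects did not differ for any of the 77 genes in limma, against 0.0385% of all genes, with 9 at an unadjusted p under 0.05 (11.7%, against 9.04%). With *Xist* class in the model the first count was 3, namely *Kcnv1*, *Kcnn1* and *Kcnmb1*, and without Nav1.8 KO replicate 2 it was 5. The share of all genes was not counted in those fits. Of the 16 genes, 7 passed in neither comparison, and they include *Kcnma1*, *Kcnc4* and *Kcnd1*.

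**Figure D3:**
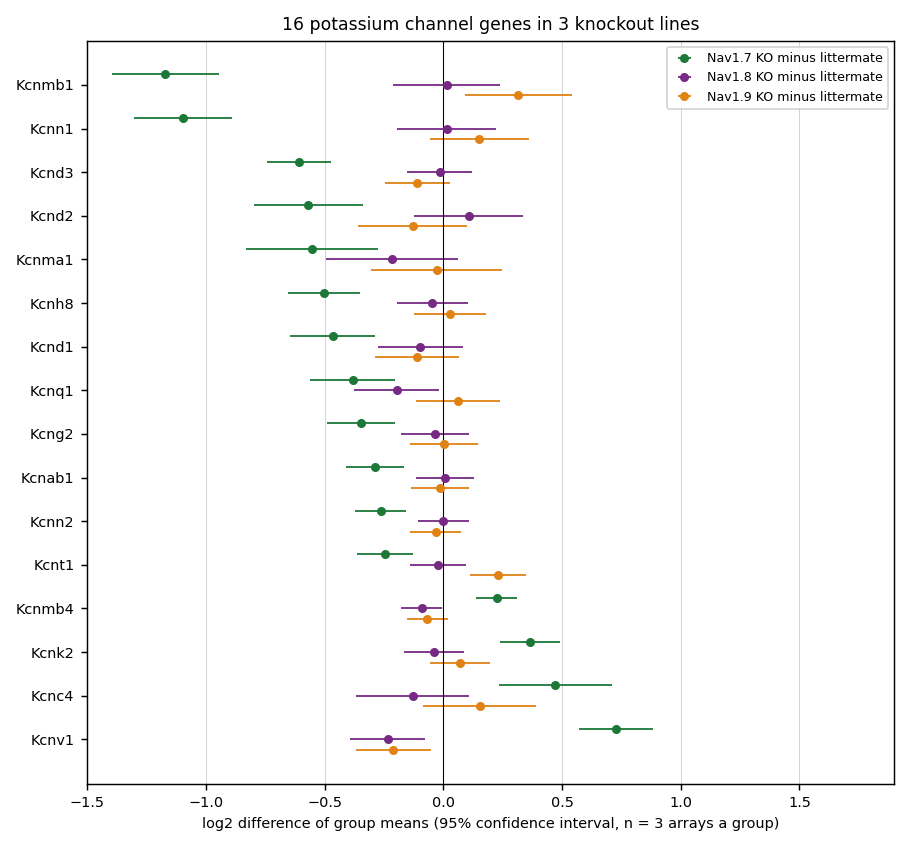
Log2 difference of group means, KO minus littermate (horizontal axis), with its 95% confidence interval from limma for 16 potassium channel genes (vertical axis) in 3 lines, n = 3 arrays a group. Green intervals of the Nav1.7 line all exclude 0, since these genes were chosen for passing there. For several genes, *Kcnmb1*, *Kcnn1*, *Kcnd3* and *Kcnv1* among them, they also lie clear of the purple Nav1.8 and orange Nav1.9 intervals.

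*Kcnt1* moved in opposite directions in 2 lines by its means. In Nav1.9 KO DRG it read 9.55, 9.42 and 9.63, against 9.29, 9.34 and 9.26 in littermates, a difference of 0.23 ± 0.056 (SE) that did not pass (adjusted p = 0.0800 from limma). The difference between the effects did pass, at -0.48 ± 0.079 (SE, Nav1.7 minus Nav1.9, adjusted p = 0.00282). The Nav1.9 KO arrays were like the Nav1.7 littermates in level, and the Nav1.9 littermates like the Nav1.7 KO arrays. *Kcnmb1* was likewise lower in Nav1.7 KO DRG and higher by its mean in Nav1.9 KO DRG, where it read 9.05, 9.05 and 9.09, against 8.73, 9.003 and 8.51 in littermates (0.32 ± 0.11 (SE), adjusted p = 0.238).

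The other members with the smallest p in the Nav1.9 line were *Kcnj4*, *Kcnk3* and *Kcna6*. *Kcnj4* (Kir2.3), an inward rectifier, read 5.63, 5.62 and 5.52 in Nav1.9 KO DRG, against 5.35, 5.42 and 5.36 in littermates (0.21 ± 0.049 (SE), adjusted p = 0.0693 from limma). *Kcnk3*, an acid-sensitive leak channel, read 7.65, 7.62 and 7.73, against 7.40, 7.53 and 7.36 in littermates (0.24 ± 0.060 (SE), adjusted p = 0.0953). Both were higher on all KO arrays, and neither passed. *Kcna6* was lower, with 9.17, 9.13 and 9.14 in Nav1.9 KO DRG, against 9.29, 9.27 and 9.39 in littermates (-0.17 ± 0.052 (SE), adjusted p = 0.184).

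In the Nav1.8 line the members with the smallest p whose arrays did not overlap were *Kcnv1*, *Kcnt2*, *Kcnq1*, *Kcnmb4* and *Kcne4*. *Kcnv1* read 8.40, 8.19 and 8.35 in Nav1.8 KO DRG, against 8.54, 8.55 and 8.56 in littermates (-0.23 ± 0.074 (SE), adjusted p = 0.495 from limma). *Kcnt2* was 0.19 higher and *Kcnq1* 0.20, *Kcnmb4* 0.09 and *Kcne4* 0.21 lower by their means, with adjusted p between 0.557 and 0.611. The 3 littermates and 1 KO array of this line were low in *Xist*.

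Where a gene has several probe sets they can be read as repeated measures of its transcripts, though they share the same RNA. Of 147 probe sets of the 77 genes, 6 rose and 21 fell in Nav1.7 KO DRG when each was tested on its own, which is 18.4% of them against 2.87% of the 34945 probe sets tested. *Kcnd1*, *Kcnn1* and *Kcnv1* passed in the same direction on every probe set, with 3 of 3, 2 of 2 and 3 of 3. *Kcnd2* fell on 3 of 4, *Kcnd3* on 2 of 4 and *Kcnma1* on 3 of 5, with all their probe sets below 0. *Kcnmb1* is the least even, at -1.17 on the brighter probe set and -0.22 on the other, which did not pass. *Kcnf1*, a modifier subunit, showed the reverse, since its brighter probe set did not pass (-0.04) and the other fell by 0.59. No probe set of these genes passed in Nav1.8 KO or Nav1.9 KO DRG, where 0.00858% and 0.283% of all probe sets did.

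**Figure D4:**
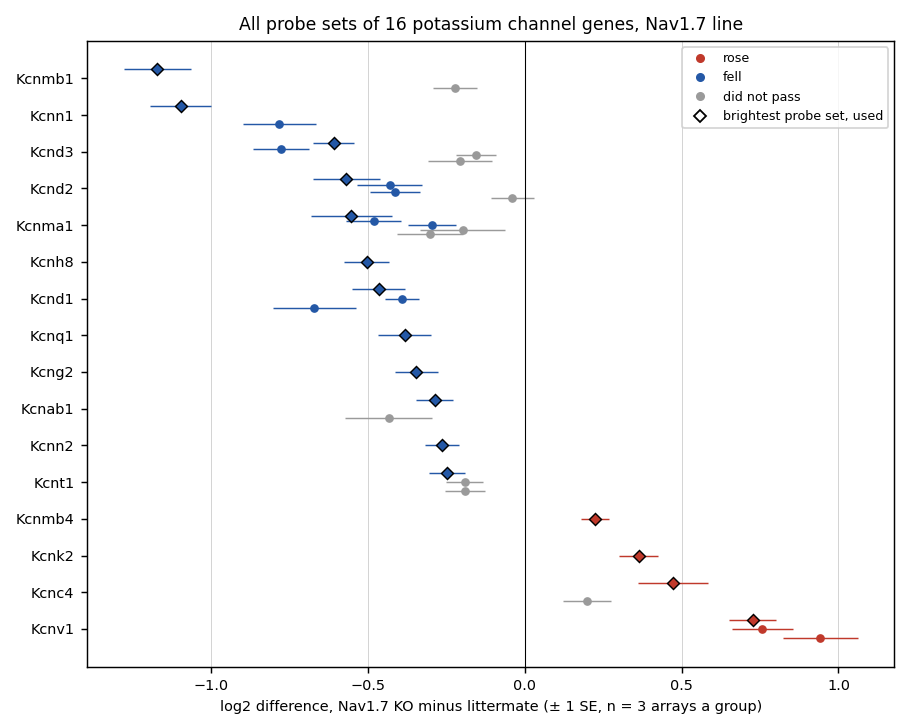
Log2 difference, Nav1.7 KO minus littermate, with 1 SE (horizontal axis) for every probe set of the 16 potassium channel genes (vertical axis), n = 3 arrays a group. Outlined diamonds are the brightest probe sets, which stand for the gene elsewhere, and grey symbols did not pass. All probe sets of these genes lie on the same side of 0 as the brightest one, and they differ most in size for *Kcnmb1*, at -1.17 and -0.22.

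Markers of DRG cell types moved in the same arrays. The marker counts stand against 1.81% of all genes that rose and 2.51% that fell in Nav1.7 KO DRG. In Nav1.7 KO DRG all 3 measured markers of C-fibre low-threshold mechanoreceptors fell (*Th* -2.26, *Tafa4* -0.94 and *Zfp521* -0.67), with a summed linear signal between 1605 and 1757 in KO DRG and between 3327 and 3687 in littermates. Of 6 markers of non-peptidergic nociceptors 5 fell, with summed signals of 18994 to 20536 in KO DRG and 22593 to 23846 in littermates. Of 4 peptidergic nociceptor markers 3 rose, with summed signals of 17911 to 18150 in KO DRG and 13630 to 14098 in littermates. In bulk tissue, fewer cells of a type and less RNA per cell cannot be told apart, and the part of these populations in the potassium channel values was not tested.

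None of 9 pan-neuronal markers passed, with summed signals of 90248 to 92054 in Nav1.7 KO DRG and 91931 to 92758 in littermates. Such a sum mostly follows its brightest markers. Singly, *Pou4f1* was the furthest below 0, at -0.32 (adjusted p = 0.068), and *Tubb3* the furthest above, at 0.14 (adjusted p = 0.187, both from limma). None of 6 markers of pericytes and smooth muscle, the tissue *Kcnmb1* is best known from, passed either, with summed signals of 3477 to 5458 in KO DRG and 4304 to 5790 in littermates. *Rgs5*, a pericyte marker, differed by -0.78 (adjusted p = 0.0529), while *Acta2*, *Myh11*, *Tagln*, *Des* and *Pdgfrb* had positive differences of up to 0.24. The sums of this list were 6485 or more on every Nav1.8 and Nav1.9 array, above all 6 arrays of the Nav1.7 line. Among other lists in Nav1.7 KO DRG, *Jun* rose by 0.41 (1 of 8 nerve injury genes), *Adgre1* by 0.37 (1 of 6 macrophage markers) and *Fabp7* by 0.36 (1 of 5 satellite glia markers), and *Ntrk2* and *Necab2* fell (2 of 6 markers of myelinated neurons). In Nav1.9 KO DRG, where 0.473% of all genes passed, 4 of the 8 nerve injury genes fell, namely *Sprr1a*, *Atf3*, *Npy* and *Jun*. The summed signals of the 8 were 7125 to 7521 in KO DRG and 8630 to 13389 in littermates. In the littermates of the Nav1.7 and Nav1.8 lines they were 6675 to 7161 and 7500 to 7740. The Nav1.9 littermates were thus the highest littermate group, and the Nav1.9 KO arrays were near the littermates of the other lines. *Runx1*, a transcription factor of non-peptidergic and C-fibre low-threshold neurons, fell by 0.80 in Nav1.7 KO DRG (adjusted p = 0.00188 from limma) and did not pass in the other lines. The part of these genes in the potassium channel values was not tested.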

How the data were processed

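The authors deposited 1 table of log2 signal per probe set for 18 Affymetrix mouse whole-genome expression arrays of DRG RNA, made with Affymetrix Expression Console (version not given in the sources used here). That the unit is log2 was read from the values, which ran between 2.86 and 14.75. The summarization and normalization methods are not given in the sources used here, and without detection calls the signal over background is unknown. Of 45101 probe sets, 64 were controls, 34945 were annotated to 1 gene, 932 to several and 9160 were not listed in the annotation used.

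Each gene took its brightest probe set over all arrays, which gave 18193 genes. Group means of 6 groups were fitted with limma 3.58.1 in R 4.3.3 (empirical Bayes, with 12 degrees of freedom from the arrays and 3.44 from the prior), and KO minus littermate was taken in each line, with Benjamini-Hochberg adjustment over all genes and a threshold of 0.05. The script was tested on simulated data. Groups came from titles and genotypes, because in the source names every one of the 18 samples is a littermate control. Replicate numbers were not used as pairs in the main model, and whether same-numbered samples belong together is not known here. Of 9 correlations between the deviations of same-numbered arrays, 3 were above 0.1. Array pairs within a group correlated at 0.996 to 0.998. *Xist* signal above 8 was called high.

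The members, classes, partner and marker lists were chosen with earlier results of these data known. Named were the members that passed, the next smallest p-values in each line and a list of DRG channel genes. Alternatives tried were other summaries of probe sets, filters, scaling and priors, each line fitted alone, an *Xist* term, a replicate block and leaving out single arrays. *Kcnq1ot1*, an antisense transcript, was left out.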

Additional observations from a re-analysis of the deposited data

Results flagged for a closer look

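The KO effect differed between lines for 10 potassium channel genes, by the test of the difference in limma (adjusted p under 0.05 over all genes). Values are the KO minus littermate difference of the Nav1.7 line minus that of the other line, on the log2 scale. Against Nav1.8, the difference was -1.18 for *Kcnmb1* (adjusted p = 0.000409), -1.11 for *Kcnn1* (adjusted p = 0.000367) and 0.962 for *Kcnv1* (adjusted p = 0.000104). It was -0.674 for *Kcnd2*, -0.594 for *Kcnd3*, -0.458 for *Kcnh8* and -0.443 for *Kcnt2*, and 0.403 for *Kcnk2* and 0.315 for *Kcnmb4*, with adjusted p between 0.00188 and 0.0475. Against Nav1.9, it was -1.49 for *Kcnmb1* (adjusted p = 4.28e-05), -1.25 for *Kcnn1* (adjusted p = 0.000108) and 0.938 for *Kcnv1* (adjusted p = 0.000112). It was -0.532 for *Kcnh8*, -0.50 for *Kcnd3* and -0.478 for *Kcnt1*, and 0.293 for *Kcnmb4*, with adjusted p between 0.00282 and 0.00929. *Kcnt2* is among them without having passed in any single line.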

How the results depend on the processing

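Apart from the unadjusted counts, the share of all genes was not counted under the alternatives of this section. The count of 16 genes in Nav1.7 KO DRG lay between 14 and 17 under 10 alternatives. With dim genes left out, *Kcnd2* and *Kcnq1* among them, only 45 members were tested and the count was 14. It was 9 with the line fitted on its own arrays and 0 by analysis of variance on the 6 arrays with Benjamini-Hochberg adjustment, where 20 members (26%, against 12.8% of all genes) had an unadjusted p under 0.05 and 12 (15.6%, against 4.57%) one under 0.01. Leaving out 1 array gave 13 to 14 in Nav1.7, 0 in Nav1.8 and 0 to 1 in Nav1.9. *Kcnc4*, *Kcnma1*, *Kcnt1* and *Kcnq1* were the calls lost there, and the other 12 were kept. The mean of all probe sets added *Kcnf1* (-0.32, adjusted p = 0.0209). In Nav1.8 the count was 0 throughout. Its low-*Xist* arrays alone, an alternative chosen after seeing the data, hold 1 KO array, assumed to vary like the other groups, so their 0 says nothing about stability. The Nav1.9 count was 1 with dim genes left out (*Kcnt1*), with a trend and robust prior (*Kcnt1*), with array weights (*Kcnj4*) and without Nav1.9 KO replicate 2 (*Kcnt1*, adjusted p = 0.0394). The Nav1.7 and Nav1.8 effects differed for 3 genes with an *Xist* term and for 5 to 9 with 1 array left out, but for 11 with dim genes left out and 13 with the mean of all probe sets, against 9. The Nav1.7 and Nav1.9 effects differed for 7 to 9 with 1 array left out and for 10 with dim genes left out, against 7. *Kcnt2* and *Kcnd2* lost the first difference most often. Among littermates 11 genes differed with an *Xist* term and 17 to 23 with 1 array left out. None of the named differences that passed changed sign. Of those that did not pass, 7 did so under 1 setting each, among them *Kcnc1* (-0.02) and *Kcnj6* (-0.03) in the Nav1.7 line with the mean of all probe sets. That mean also brought *Kcnq5* to 0.0059 and *Kcnk3* to 0.07 in the Nav1.7 line, and *Kcnk3* to 0.10 and *Kcna6* to -0.0013 in the Nav1.9 line. The cause of these shifts was not tested.

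With replicate number as a block, 14 genes passed in Nav1.7 KO DRG (*Kcnc4* and *Kcnt1* were lost), 0 in Nav1.8 and 0 in Nav1.9. The block left 5 differences against Nav1.8, 6 against Nav1.9 and 0 between Nav1.8 and Nav1.9. The correlations of same-numbered arrays ran between -0.194 and 0.266. No paired analysis was possible because littermates of different lines share no block, for the comparison among littermates. The number of arrays limits precision, and small differences in dim probe sets cannot be seen without a measure of background.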
